A study of Mus musculus with 24 samples.

Results

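The 8 genes Tusc3, Gm8203, Wdfy1, Gm16867, Krcc1, Procr, Pla2g12b and Dok3 were followed through 24 mouse RNA-seq libraries, out of 30153 genes in the deposited table. They were chosen because their levels differed sharply between libraries or between mouse lines in these same data, so their own differences are given as a description, without a p-value. The libraries came from 6 groups of 4 animals, all labelled as kidney of strain C57/BL6. Haplotype-I (Hap-I) and haplotype-II (Hap-II) mice, which the series title describes as hypertensive and overexpressing the human angiotensin receptor type 1, were compared with mice labelled C57. Western diet was given to Hap-I adults, to Hap-II adults and to aged Hap-I animals. A further set of Hap-I adults, a further set of aged Hap-I animals and the C57 adults completed the design. No diet is stated for the last 3 groups. The sources used here do not state the promoter of the transgene, the number of founder lines, the sex or the exact age. Values are TPM (transcripts per 1000000 transcripts), a measure of transcript abundance scaled for length and library total. The read depth behind them is unknown, and a value of 0 means only that a gene was listed at 0.

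All 8 libraries of the Hap-I groups without western diet stood apart from their tissue label. Snap25, a synaptic vesicle fusion protein of neurons, lay between 1662 and 2269 TPM in these 8 and between 0 and 1.502 TPM in the other 16. Umod, the uromodulin gene of the thick ascending limb, lay between 0 and 3.47 TPM in the 8 and between 20.2 and 2484 TPM in the 16. The summed TPM of 8 nephron markers was 0.256 to 6.57 in the 8 libraries, against 369 to 5720 in the 16. Among mice fed the diet, it was 369 to 1417 in Hap-I adults, 592 to 3528 in aged Hap-I mice and 677 to 3409 in Hap-II adults. In C57 adults it was 3328 to 5720, and the part of these sums in the levels of the members was not tested. The 8 libraries are called by their labels below, and levels are compared with them apart from the 16 libraries of the western diet and C57 groups. Y-linked transcripts also differed by group, with a sum over 4 genes of 0.730 to 0.954 TPM in C57 adults and 35.4 to 70.4 TPM in the 8 libraries. Each western diet group held both low and high sums. They ran from 0.868 to 38.2 TPM in Hap-I adults, 0.772 to 28.9 TPM in aged Hap-I mice and 0.485 to 40.2 TPM in Hap-II adults. In such bulk samples, fewer cells of a type and less RNA per cell cannot be told apart.

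The genes have separate roles. Tusc3 encodes a subunit of the oligosaccharyltransferase, the complex of the endoplasmic reticulum that attaches glycans to asparagines of new proteins; its paralog Magt1 can take the same place in the complex. Gm8203 is a processed pseudogene, a reverse-transcribed and reinserted copy of the messenger RNA of H2afz, which encodes the histone variant H2A.Z. Wdfy1 is a FYVE and WD repeat protein of early endosomes that takes part in signalling from Toll-like receptors 3 and 4. Procr is the endothelial protein C receptor, which presents protein C to thrombin bound to thrombomodulin and so favours anticoagulation. Pla2g12b is a catalytically inactive member of the secreted phospholipase A2 family, known for its part in loading lipid onto lipoproteins. Dok3 is an adaptor that dampens signalling in B cells and macrophages. Krcc1 encodes a lysine-rich coiled-coil protein, and Gm16867 is a predicted gene.

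In the GENCODE M21 annotation of GRCm38, the members lie on 7 chromosomes. Tusc3 (ENSMUSG00000039530) is at chr8:39005845-39165114 on the plus strand and Gm8203 (ENSMUSG00000101878) at chr6:116173737-116174123 on the plus strand. Wdfy1 (ENSMUSG00000073643) is at chr1:79702262-79776143 on the minus strand and Gm16867 (ENSMUSG00000093954) at chr14:69363504-69503362 on the minus strand. Krcc1 (ENSMUSG00000053012) is at chr6:71271677-71285319 and Procr (ENSMUSG00000027611) at chr2:155751117-155755471, both on the plus strand. Pla2g12b (ENSMUSG00000009646) is at chr10:59403660-59421976 on the plus strand and Dok3 (ENSMUSG00000035711) at chr13:55523231-55529296 on the minus strand. All but Gm8203 are annotated as protein coding.

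The sequence of Gm8203 bears on how its TPM can be read, so its first 300 bases, chr6:116173737-116174036, are given with the start codon in capitals.
Gm8203: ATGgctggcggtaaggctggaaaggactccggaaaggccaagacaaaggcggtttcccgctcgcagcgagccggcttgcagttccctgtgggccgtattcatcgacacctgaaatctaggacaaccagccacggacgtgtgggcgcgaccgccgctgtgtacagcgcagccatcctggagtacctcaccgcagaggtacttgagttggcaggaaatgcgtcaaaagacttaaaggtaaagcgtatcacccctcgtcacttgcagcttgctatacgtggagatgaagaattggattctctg
All 387 bases of the gene were identical to the coding sequence of H2afz, positions 208 to 594 of its protein-coding transcript, so that 357 of 357 words of 31 bases were shared. The pseudogene is annotated inside Tmcc1, and the same bases lie on the opposite strand of a retained-intron transcript of Tmcc1 at positions 191 to 577. No base separates a read within Gm8203 from one within the H2afz coding sequence, and the values of both genes are uncertain for that reason.

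Gm16867 also shared nearly all of its sequence. Of its 7809 words of 31 bases, 98.9 percent were found in another annotated gene, 88.0 percent in Gm27177, 26.3 percent each in the ecto-nucleotidase genes Entpd4 and Entpd4b, and 5.67 percent in the mitochondrial iron importer Slc25a37. The 84 words found in no other gene all spanned 1 of 3 splice junctions, which join the same upstream exon to different downstream exons. These junctions are shown because only they are particular to the gene; small letters are the upstream exon and capitals the downstream exon.
Gm16867, junction of the protein-coding transcript: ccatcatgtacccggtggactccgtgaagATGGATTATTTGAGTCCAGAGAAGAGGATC
Gm16867, junction of 3 transcripts annotated for nonsense-mediated decay: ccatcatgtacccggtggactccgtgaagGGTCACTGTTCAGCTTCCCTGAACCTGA
Gm16867, junction of a further such transcript: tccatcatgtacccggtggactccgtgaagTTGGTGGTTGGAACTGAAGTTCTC
The bases in small letters also occur in transcripts of Slc25a37, and those in capitals in Gm27177. The upstream exon ends at chr14:69502982 and the capitals begin at chr14:69465011, chr14:69421999 and chr14:69373121 in the order shown, reading the minus strand. Of the other members, Krcc1 had 4.90 percent of its words in another gene, Wdfy1 3.33 percent and Tusc3 0.475 percent, while Procr, Pla2g12b and Dok3 had none.

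To describe states, a library was called off for a gene under 0.5 TPM, on at 1 TPM or more, and between otherwise. A gene was said to switch where at least 2 libraries were off, at least 2 were on and none lay between. Of the 8 members, Tusc3 and Gm8203 met this description over all 24 libraries, and so did 6.35 percent of the 23787 genes above 0 (1511 genes). Over the 16 western diet and C57 libraries the same 2 members met it, with 1.28 percent of genes, and over the 8 other libraries the same 2 again, with 0.785 percent. The remaining 6 members had graded levels or libraries between the limits. With off defined as under 0.1 TPM, Gm8203 no longer met the description over the 24 libraries, since 1 library lay at 0.121 TPM; with median-of-ratios rescaling, Dok3 met it as well.

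Tusc3 was off in the 4 Hap-I adults fed western diet, at 1.62e-06, 9.33e-07, 0.0085 and 3.82e-08 TPM. Aged Hap-I mice fed the diet had 18.05, 7.77, 22.3 and 8.30 TPM, and Hap-II adults fed the diet 13.01, 8.25, 3.14 and 13.3 TPM. C57 adults had 26.7, 28.1, 30.4 and 27.9 TPM. All 4 Hap-I adults fed the diet thus lay below every other library of these 16, and the C57 libraries were the highest.

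Among the Hap-I libraries without western diet, the state of Tusc3 divided the groups themselves. The adults had 21.5, 0, 0 and 87.9 TPM, and the aged mice 6.68, 1.49e-09, 150 and 125 TPM. Libraries 2 and 3 of the adults and library 2 of the aged mice were off, and the highest values of all 24 libraries stood beside them in the same groups. The mean was 27.3 ± 41.6 TPM in the adults and 70.3 ± 78.0 TPM in the aged mice (SD, n = 4 each). No library had Tusc3 between 0.0085 and 3.14 TPM.

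Gm8203 was listed at 0 in all 4 Hap-I adults fed western diet. The aged Hap-I mice fed the diet had 41.9, 54.7, 47.04 and 16.6 TPM, the Hap-II adults 23.3, 42.1, 15.2 and 19.7 TPM, and the C57 adults 57.7, 34.8, 32.3 and 73.1 TPM. Without the diet, the Hap-I adults had 55.2, 0.121, 0 and 85.1 TPM and the aged Hap-I mice 31.8, 0, 62.9 and 68.6 TPM. The 7 libraries in which Gm8203 was off were the 7 in which Tusc3 was off, and the 17 others held both genes at 1 TPM or more. No other gene of the table had the same states in all 24 libraries. Tusc3 and Gm8203 lie on different chromosomes.

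**Figure D1:**
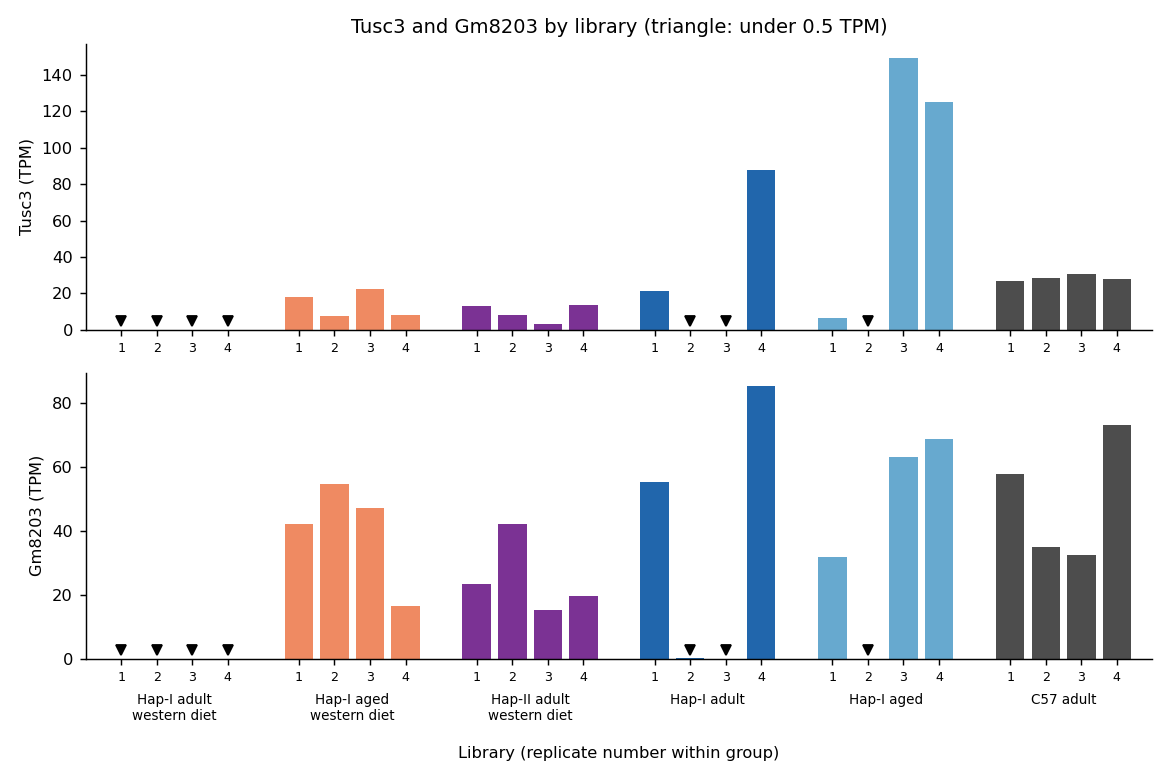
TPM of Tusc3 (top) and Gm8203 (bottom) in each of the 24 libraries, grouped by label; 1 bar is 1 library and a triangle marks a library under 0.5 TPM. The same 7 libraries are marked for both genes, all 4 Hap-I adults fed western diet among them, while the 17 others reach 3.14 TPM or more for Tusc3 and 15.2 TPM or more for Gm8203.

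The sum of Gm8203 and H2afz overlapped between the states. TPM is scaled for length, and Gm8203 has 387 bases against 1069 in the protein-coding transcript of H2afz. A read thus weighs more when assigned to Gm8203, so the sum of TPM is no count of reads. Among the western diet and C57 libraries, the sum was 104 to 157 TPM in the 4 off libraries and 94.9 to 178 TPM in the 12 on libraries. Among the 8 others it was 158 to 166 TPM in the 3 off libraries and 160 to 191 TPM in the 5 on libraries, and both ranges overlapped. The sum averaged 135 ± 23.5 TPM in Hap-I adults fed the diet, 133 ± 33.7 TPM in the aged mice fed the diet and 133 ± 23.1 TPM in Hap-II adults fed the diet (SD, n = 4 each). It was 117 ± 23.5 TPM in C57 adults, 167 ± 8.76 TPM in Hap-I adults without the diet and 175 ± 14.4 TPM in aged Hap-I mice without it.

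H2afz itself was set beside the state of Gm8203. It reached 158 to 166 TPM in the 3 off libraries without the diet, above the 89.6 to 128 TPM of the 5 on libraries. In the other 16 libraries it was 104 to 157 TPM in the 4 off libraries and 62.6 to 124 TPM in the 12 on libraries, which overlapped. Where on, Gm8203 held 11.5 to 51.6 percent of the sum in the western diet and C57 libraries and 19.9 to 48.7 percent in the others. How the reads common to both genes were divided was not tested.

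**Figure D2:**
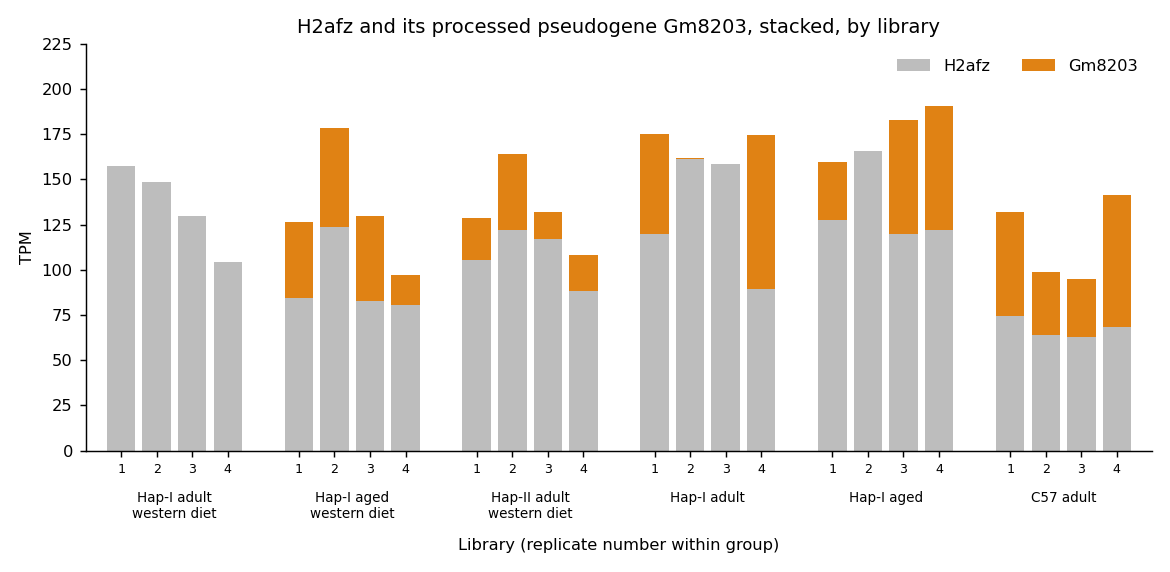
TPM of H2afz (grey) with Gm8203 (orange) stacked on it, in each of the 24 libraries grouped by label; the top of a bar is the sum. The 7 libraries with no orange or almost none have sums of 104 to 166 TPM, within the 94.9 to 191 TPM of the 17 others. TPM is scaled for length, so the sum is no count of reads.

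Utp11 also separated the same 7 libraries from the other 17. This gene, a factor of ribosomal RNA processing, was 10.1 to 14.5 TPM in the 7 libraries and 14.5 to 25.5 TPM in the 17, with almost no gap between them. The mitochondrially encoded oxidase subunit mt-Co3 ran the other way and was the kept gene most opposite to Gm8203 over the 16 western diet and C57 libraries (Pearson r of log2(TPM + 1) = -0.89, n = 16). It was 32762 to 78711 TPM in the 4 off libraries and 8948 to 35887 TPM in the 12 on libraries. In the 8 others it was 26931 to 31589 TPM in the 3 off libraries and 7715 to 20091 TPM in the 5 on libraries, without overlap. The mitochondrial share of all TPM was 25.0 to 34.7 percent in the 4 off libraries and 12.4 to 35.7 percent in the 12 on libraries. In the 8 others this share was 21.6 to 26.4 percent in the 3 off libraries and 11.3 to 16.7 percent in the 5 on libraries. The part of mt-Co3 and of this share in the states of Tusc3 and Gm8203 was not tested. Y-linked sums overlapped between the states, at 0.868 to 38.2 TPM in the 4 off libraries and 0.485 to 40.2 TPM in the 12 on libraries.

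The genes most like Tusc3 over the 16 libraries were Gm8203 (r = 0.94), Gpatch4 (r = 0.90) and Anp32b (r = 0.88), and those most like Gm8203 were Tusc3, Cwc15 (r = 0.87) and Ngb (r = 0.85). The points of these correlations share their libraries and their scaling to TPM. Gpatch4 and Anp32b stayed on in all 16 libraries: Gpatch4 was 3.45 to 4.32 TPM in Hap-I adults fed western diet against 9.27 to 11.3 TPM in C57 adults, and Anp32b 27.0 to 35.2 TPM against 73.8 to 83.8 TPM.

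Partners of Tusc3 in the oligosaccharyltransferase were measured in full, and 11 of 11 others passed the filter of 1 TPM in at least 4 libraries. Magt1, the paralog, was 3.24 ± 0.304 TPM in Hap-I adults fed western diet, where Tusc3 was off, and 4.13 ± 3.12 TPM in Hap-II adults fed the diet (SD, n = 4 each; limma adjusted p = 0.962). In aged Hap-I mice fed the diet it was 6.38 ± 4.37 TPM (limma adjusted p = 0.333 against the adults). None of the 11 was called for haplotype or for age by limma at an adjusted p of 0.05. Against C57 adults, 1 was higher and 8 were lower in Hap-I adults fed the diet, beside 2.55 percent higher and 58.8 percent lower over all genes tested, and the median log2 difference was -1.12 beside -0.68. Magt1 was among the lower ones (log2 difference -1.20, limma adjusted p = 0.0061), and Ost4, a small subunit, was the higher one (0.32, adjusted p = 0.0252). With median-of-ratios rescaling, 5 of the 8 lower calls were lost: Magt1 (adjusted p = 0.396), Stt3a (0.453), Ddost (0.0738), Dad1 (0.894) and Krtcap2 (0.346, with the sign turned). The call of Ost4 held under 8 of 13 alternatives, and its adjusted p was 0.0704 without the 8 Hap-I libraries off the diet.

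Wdfy1 was on in every library and never below 4.20 TPM. Hap-I adults fed western diet had 4.80, 4.20, 4.45 and 11.6 TPM, aged Hap-I mice fed the diet 7.13, 19.1, 20.6 and 16.6 TPM, and Hap-II adults fed the diet 16.4, 12.5, 12.99 and 15.4 TPM. C57 adults had 10.1, 16.6, 15.8 and 17.9 TPM. Libraries 1 to 3 of the Hap-I adults fed the diet lay below all other libraries of the 16, and library 4 lay among them. In the Hap-I groups without the diet the order by age was the opposite one, with 14.03, 20.7, 19.5 and 17.95 TPM in adults and 6.38, 12.6, 5.10 and 6.09 TPM in aged mice, which did not overlap.

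By group, Wdfy1 was highest in Hap-I adults without the diet (18.05 ± 2.90 TPM), followed by aged Hap-I mice fed the diet (15.9 ± 6.05), C57 adults (15.1 ± 3.44), Hap-II adults fed the diet (14.3 ± 1.89), aged Hap-I mice without the diet (7.54 ± 3.41) and Hap-I adults fed the diet (6.26 ± 3.57; SD, n = 4 each). The first 4 of these overlapped one another, and so did the last 2. The last 2 also overlapped the aged Hap-I mice fed the diet and the C57 adults. Aged Hap-I mice without the diet overlapped the Hap-II adults as well. The genes most like Wdfy1 over the 16 libraries were Tle3 (r = 0.80), Klf9 (r = 0.77) and Smarca2 (r = 0.77). Its relatives and the Toll-like receptor adaptors, 9 of 10 of which passed the filter, held no call for haplotype or for either age comparison. The nearest relative named, Wdfy2, was 1.90 ± 0.632 TPM in Hap-I adults and 2.30 ± 0.928 TPM in Hap-II adults fed the diet (limma adjusted p = 0.841).

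Krcc1 was on in every library. Hap-I adults fed western diet had 20.4, 21.6, 27.4 and 22.6 TPM. The other libraries of the 16 were all higher, the nearest of them at 28.9 TPM, with 50.2, 56.6, 35.9 and 46.4 TPM in aged Hap-I mice fed the diet, 48.9, 53.1, 59.9 and 41.5 TPM in Hap-II adults fed the diet, and 28.9, 46.4, 41.4 and 41.9 TPM in C57 adults. The 8 Hap-I libraries without the diet were the lowest, at 7.63, 8.49, 10.4 and 13.3 TPM in adults and 6.48, 6.80, 12.2 and 6.57 TPM in aged mice, and these 2 groups overlapped. The genes most like Krcc1 over the 16 libraries were Cwc15 (r = 0.83), Gpn3 (r = 0.81) and Pin4 (r = 0.79).

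Procr lay at 4.69, 4.25, 3.08 and 2.5003 TPM in Hap-II adults fed western diet. C57 adults had 2.63, 2.94, 2.58 and 2.33 TPM, aged Hap-I mice fed the diet 2.75, 2.19, 1.81 and 2.23 TPM, and Hap-I adults fed the diet 2.03, 1.11, 1.61 and 1.11 TPM. Every Hap-II library was above every library of Hap-I adults fed the diet, while neighbouring groups in this order overlapped. The Hap-I adults without the diet had 0.863, 0.620, 0.742 and 0.576 TPM and the aged mice 0.442, 0.452, 0.343 and 0.376 TPM. The aged group was under 0.5 TPM throughout and did not overlap the adults. The summed TPM of 5 endothelial markers was 65.1 to 126 in Hap-I adults and 65.5 to 138 in Hap-II adults fed the diet, 132 to 178 in aged Hap-I mice fed the diet, 176 to 228 in C57 adults and 34.9 to 47.9 in the 8 others; their part in the Procr levels was not tested.

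The other protein C pathway genes gave 8 of 11 past the filter. Thbd, or thrombomodulin, rose with age under western diet from 6.20 ± 2.84 to 11.97 ± 2.12 TPM (SD, n = 4 each; log2 difference 0.91, limma adjusted p = 0.0346). Pros1, the cofactor protein S, rose from 4.16 ± 1.94 to 10.7 ± 4.95 TPM (log2 difference 1.15, limma adjusted p = 0.0417). Both calls were lost when the 8 Hap-I libraries without the diet were left out of the fit (limma adjusted p = 0.161 and 0.171). Thbd was called under 4 of 14 alternatives and Pros1 under 5 of 14. The endothelial marker sums above did not overlap between these 2 groups, and their part in the rise was not tested. Protein C itself, Proc, was 6.62 ± 6.12 TPM in Hap-I adults and 3.28 ± 3.54 TPM in Hap-II adults fed the diet (limma adjusted p = 0.738).

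Among adults fed western diet, Pla2g12b was higher in Hap-I than in Hap-II mice. Hap-I adults fed western diet had 1.40, 2.11, 2.37 and 1.06 TPM and aged Hap-I mice fed the diet 1.495, 1.62, 2.48 and 2.22 TPM. Hap-II adults fed the diet had 0.156, 0.446, 0.834 and 0.0808 TPM and C57 adults 0.577, 0.353, 0.382 and 0.349 TPM. The 8 libraries of Hap-I mice fed the diet were thus all on and the 8 Hap-II and C57 libraries all under 1 TPM. In the Hap-I libraries without the diet it was listed at 0 in 7 of 8 and at 0.0488 TPM in adult library 3. The nephron marker sums of these 8 were 0.256 to 6.57 TPM, and their part in the Pla2g12b levels was not tested.

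Among the secreted phospholipases, 4 of 10 others passed the filter. The closest relative, Pla2g12a, was 10.5 ± 1.08 TPM in Hap-I adults and 15.3 ± 6.32 TPM in Hap-II adults fed the diet (limma adjusted p = 0.737). Pla2g2f, listed at 0 in all 12 western diet libraries, was higher in aged than in adult Hap-I mice without the diet, at 3.88 ± 0.863 against 1.22 ± 0.839 TPM (log2 difference 1.21, limma adjusted p = 0.00213). With only these 2 groups in the fit, its adjusted p was 0.154. The lipoprotein genes, all 9 of which passed the filter, held no call for haplotype or for age. Among them Mttp, which transfers lipid to apolipoprotein B, was 2.89 ± 0.695 TPM in Hap-I adults and 5.55 ± 3.44 TPM in Hap-II adults fed the diet (limma adjusted p = 0.737). The genes most like Pla2g12b over the 16 libraries were Arhgap15 (r = 0.71), Mroh7 (r = 0.71) and Ces2h (r = 0.69).

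Dok3 was above 0.5 TPM in 6 of 24 libraries, all of them from mice fed western diet. Hap-II adults had 2.03, 1.28, 0.827 and 0.677 TPM and aged Hap-I mice fed the diet 0, 1.67, 0.266 and 1.22 TPM. It was listed at 0 in all 4 Hap-I adults fed the diet, in all 8 Hap-I libraries without it and in 3 of 4 C57 adults, and at 2.93e-05 TPM in C57 library 1. The summed TPM of 5 macrophage markers was 14.2 to 54.4 in Hap-I adults fed the diet, 22.2 to 68.3 in Hap-II adults and 39.4 to 103 in aged Hap-I mice fed the diet. In C57 adults it was 58.1 to 80.0 TPM, which overlapped the Hap-II adults and the aged Hap-I mice fed the diet. In the Hap-I groups without the diet it was higher than in all other groups, at 141 to 197 TPM. Dok3 was listed at or near 0 in the C57 adults and in the Hap-I groups without the diet. The 5 B cell markers summed to 5.27 to 25.8 TPM in Hap-I adults, 8.99 to 28.0 TPM in Hap-II adults and 47.9 to 229 TPM in aged Hap-I mice fed the diet. They summed to 29.0 to 260 TPM in C57 adults and 11.2 to 59.7 TPM in the Hap-I groups without the diet, where Dok3 was also at or near 0. The part of both marker lists in the Dok3 levels was not tested.

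The 12 other genes of the Dok family and its signalling partners all passed the filter. Dok1 was 1.46 ± 0.545 TPM in Hap-I adults and 2.35 ± 1.10 TPM in Hap-II adults fed the diet, and Dok2 was 2.58 ± 1.23 and 3.42 ± 2.30 TPM (limma adjusted p = 0.737 and 0.857). Over all 24 libraries Dok1 was at least 0.620 TPM and Dok2 at least 0.296 TPM. Syk, the kinase that relays antigen receptor signals, rose with age under western diet from 0.436 ± 0.238 to 1.43 ± 0.489 TPM (log2 difference 0.76, limma adjusted p = 0.0398). Without the 8 Hap-I libraries off the diet, the limma adjusted p of Syk was 0.174, and it was called under 4 of 13 alternatives. The gene most like Dok3 over the 16 libraries was the ribosomal protein pseudogene Rps10-ps2 (r = 0.95), at 0.600 to 1.56 TPM in Hap-II adults and 0 to 3.41 TPM in aged Hap-I mice fed the diet, followed by Mrpl21 (r = 0.81) and Hoxa10 (r = 0.81).

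Gm16867 separated 1 group from all others. Aged Hap-I mice without western diet had 17.7, 14.9, 11.3 and 10.1 TPM, and the 20 other libraries had at most 1.80 TPM. Hap-I adults without the diet had 0.948, 1.54, 1.29 and 1.80 TPM. Fed the diet, Hap-I adults had 0.0347, 0.465, 0.452 and 0.160 TPM, aged Hap-I mice 0, 0.881, 0.340 and 1.26 TPM, and Hap-II adults 1.09, 0.0640, 0.878 and 0.453 TPM, while C57 adults had 0.219, 0.624, 0.110 and 0.392 TPM. These 4 groups overlapped.

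Entpd4 and Entpd4b, which share sequence with Gm16867, also had their highest group means there. Entpd4 was 71.7, 60.6, 57.2 and 59.6 TPM in the aged Hap-I mice without the diet, above the 26.6 to 34.2 TPM of the adults (log2 difference 0.99, limma adjusted p = 0.427). Entpd4b was 27.9, 25.7, 23.3 and 23.5 TPM, above the 14.2 to 18.8 TPM of the adults (log2 difference 0.62, limma adjusted p = 0.562). Neither difference passed the test, although the groups did not overlap. The test used a spread pooled over all 6 groups, which is not that of the 2 groups compared. For Entpd4 the SD was 6.43 TPM in these aged mice and 3.90 TPM in the adults, but 18.7 TPM in aged Hap-I mice fed the diet. Slc25a37, which carries the upstream exon, was 6.14 ± 0.984 TPM in the aged mice and 6.25 ± 0.967 TPM in the adults (SD, n = 4 each).

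**Figure D3:**
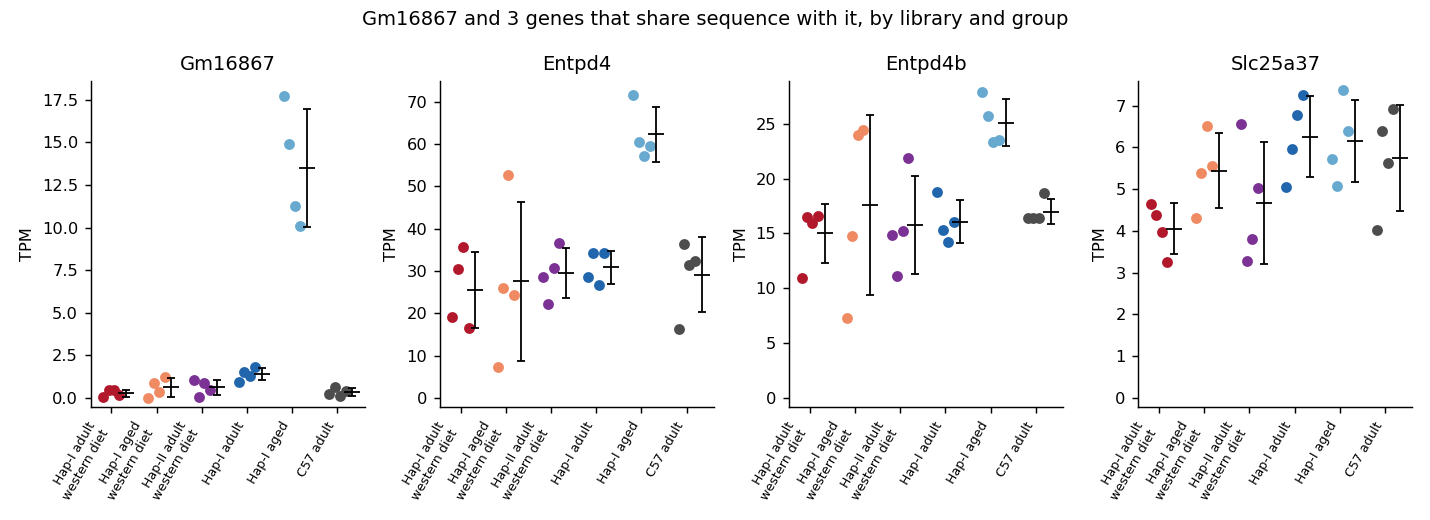
TPM of Gm16867 and of Entpd4, Entpd4b and Slc25a37 in each library by group; points are libraries and the black mark and bar are the mean and SD of 4. Aged Hap-I mice without western diet hold the 4 highest values of Gm16867 (10.1 to 17.7 TPM) and of Entpd4 (57.2 to 71.7 TPM), while for Slc25a37 they overlap the adults.

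Likeness to Gm16867 depended on the libraries. Over the 16 western diet and C57 libraries, where the gene was low, the most alike were Rnls (r = 0.74), Gm10409 (r = 0.72) and Rps10-ps2 (r = 0.71). Over all 24 libraries they were Spag6 (r = 0.93) and Sntn (r = 0.92), genes of motile cilia, and Pla2g2f (r = 0.91). Spag6 was 2.77 ± 0.564 TPM in aged and 1.03 ± 0.157 TPM in adult Hap-I mice without the diet and at most 0.212 TPM elsewhere. Sntn was listed at 0 in the 16 libraries.

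**Figure D4:**
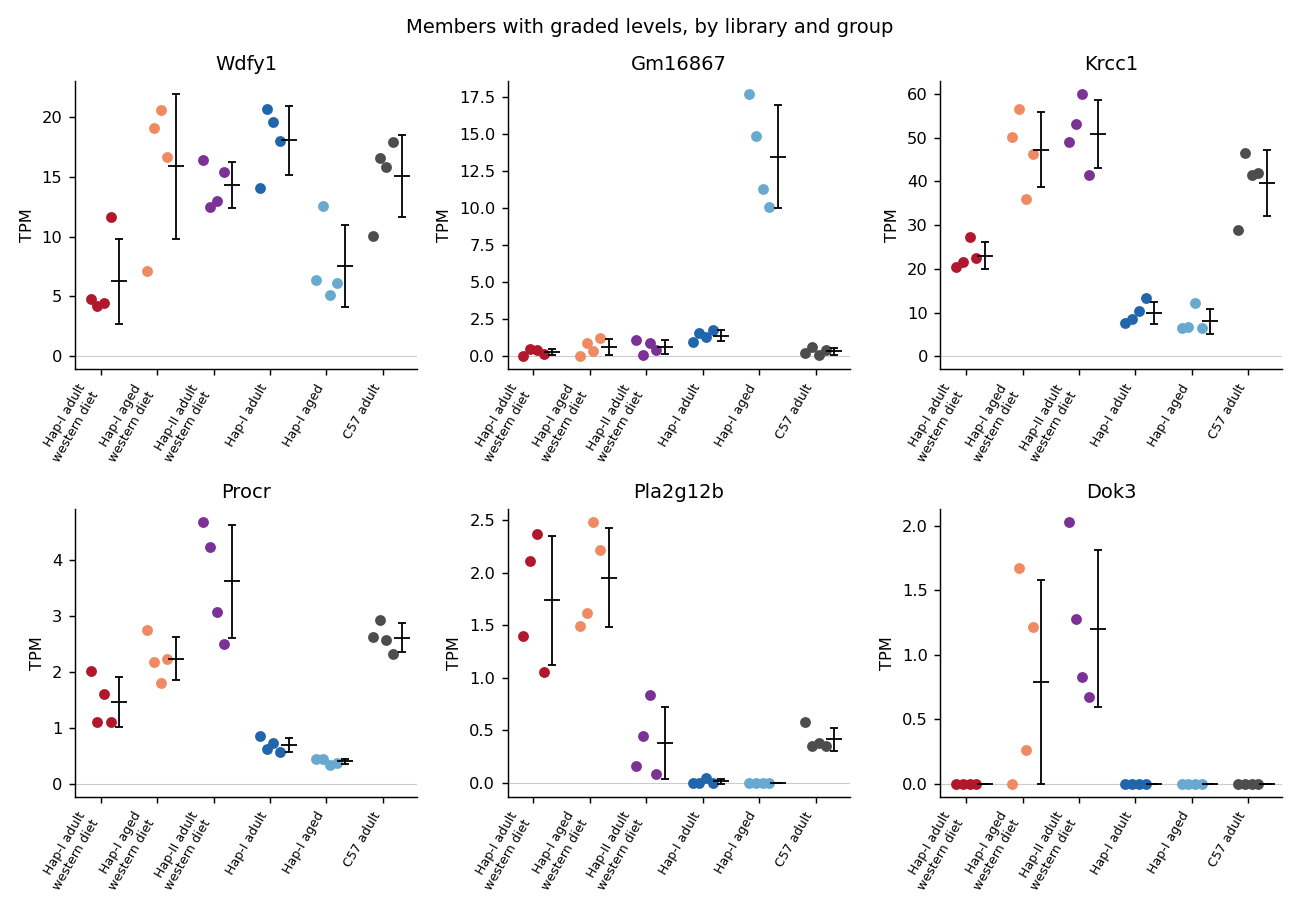
TPM of Wdfy1, Gm16867, Krcc1, Procr, Pla2g12b and Dok3 in each library by group; points are libraries and the black mark and bar are the mean and SD of 4. Wdfy1, Krcc1 and Procr are lower in Hap-I adults fed western diet (means of 6.26, 23.0 and 1.47 TPM) than in Hap-II adults fed the diet (14.3, 50.9 and 3.63 TPM), and Pla2g12b is higher (1.74 against 0.379 TPM).

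Haplotype was compared in adults fed western diet. The libraries of the 2 groups did not overlap for 7 of the 8 members, beside 2.4 percent of the 15200 genes tested; the members were picked for such differences, so nothing is read from this count. Differences are in log2(TPM + 1), which understates the change of low genes. The SE given here and below comes from a spread pooled over all 6 groups, so it is the same for a gene in every comparison. For Tusc3 and Gm8203 it includes the on and off libraries side by side in the Hap-I groups without the diet. It is therefore not the spread of the 2 groups compared. Hap-I minus Hap-II was -4.60 ± 1.23 for Gm8203 and -3.22 ± 1.29 for Tusc3 (SE, n = 4 each). It was -1.18 ± 0.31 for Wdfy1, -1.11 ± 0.21 for Krcc1, -1.10 ± 0.21 for Dok3 and -0.90 ± 0.15 for Procr. Pla2g12b went the other way, at 0.99 ± 0.16, and the exception, Gm16867, was at -0.31 ± 0.24.

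Age was compared in Hap-I mice fed western diet, against the same 4 adult libraries. The groups did not overlap for Tusc3, Gm8203 and Krcc1, beside 6.43 percent of all genes. Aged minus adult was 5.24 ± 1.23 for Gm8203, 3.78 ± 1.29 for Tusc3, 1.23 ± 0.31 for Wdfy1, 1.00 ± 0.21 for Krcc1, 0.73 ± 0.21 for Dok3 and 0.41 ± 0.15 for Procr (SE, n = 4 each). As both comparisons use the Hap-I adults fed the diet, a low level in those 4 libraries enters each of them.

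Age without the diet used other libraries. The groups did not overlap for Wdfy1, Gm16867 and Procr, beside 10.3 percent of all genes. Aged minus adult was 2.58 ± 0.24 for Gm16867, -1.22 ± 0.31 for Wdfy1 and -0.27 ± 0.15 for Procr (SE, n = 4 each). Tusc3 was at 1.55 ± 1.29 and Gm8203 at 1.19 ± 1.23, with both states present in each group. Wdfy1 therefore had opposite signs with age under the diet and without it; this difference was not tested.

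**Figure D5:**
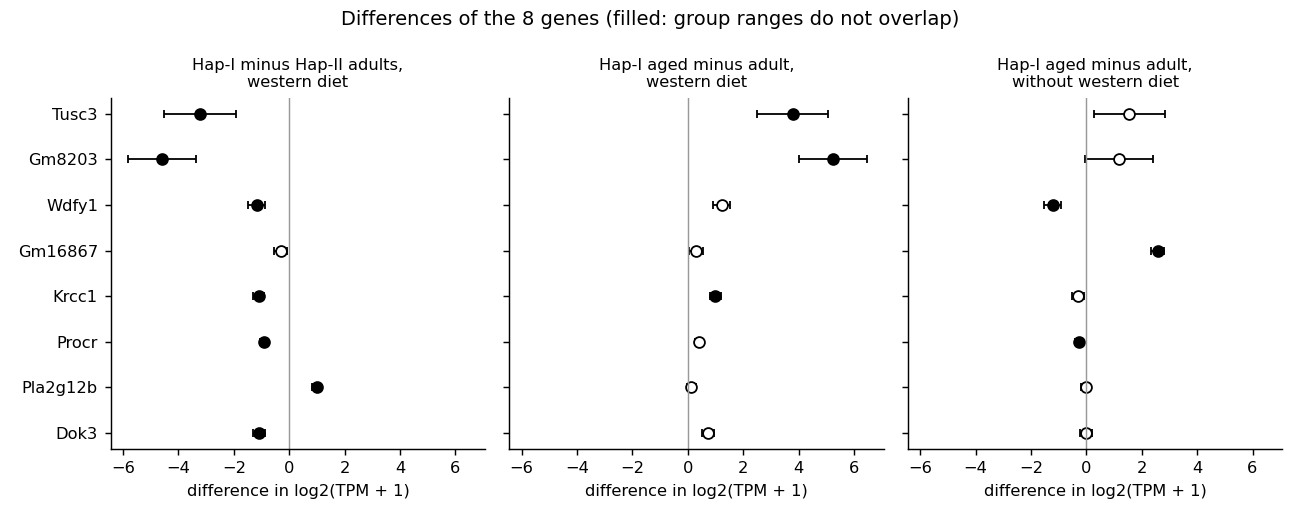
Differences of the 8 members in log2(TPM + 1) for haplotype under western diet, age under western diet and age without it; points are group differences, bars are SE from the fit over 24 libraries, and filled points mark groups that do not overlap. Tusc3 and Gm8203 have the largest differences and errors of the 8 in the first 2 panels (-3.22 and -4.60, then 3.78 and 5.24), and Gm16867 stands out in the last (2.58).

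C57 adults serve both of the following comparisons. Mouse line and stated diet differ together in each, so the 2 cannot be told apart. In Hap-I adults fed the diet, 8940 of the 15200 genes tested were called lower and 387 higher. These became 2937 lower and 2628 higher with median-of-ratios rescaling. For Hap-II adults fed the diet, 6615 were lower and 480 higher, which became 2247 and 2107. The groups did not overlap for 5 of the 8 members in Hap-I adults fed the diet, beside 53.9 percent of all genes, and for 2 members in Hap-II adults fed the diet, beside 29.0 percent. Hap-I minus C57 was -5.58 ± 1.23 for Gm8203 and -4.87 ± 1.29 for Tusc3, and 0.93 ± 0.16 for Pla2g12b (SE, n = 4 each). Krcc1 (-0.75 ± 0.21) and Procr (-0.57 ± 0.15) changed sign with median-of-ratios rescaling, to 0.18 and 0.059. Hap-II minus C57 was -1.64 ± 1.29 for Tusc3 and 1.10 ± 0.21 for Dok3, the 2 members without overlap there. The median over all genes was -0.68 for Hap-I and -0.50 for Hap-II, and -0.05 for both after that rescaling.

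Genes near the members were read for whether a stretch of chromosome moved with them. Of the genes whose lower coordinate lay within 1 Mb of that of a member, 171 passed the filter. None was called for haplotype by limma at an adjusted p of 0.05, beside 0.0724 percent of all genes tested (11 of 15200), and 11 of the 171 had an unadjusted p under 0.05. For age under the diet 10 were higher and none lower, or 5.85 percent beside 2.91 percent of all genes. For age without the diet 1 was lower, or 0.585 percent beside 0.428 percent. Against C57, 2 were higher and 105 lower in Hap-I adults fed the diet, or 62.6 percent beside 61.4 percent of all genes. In Hap-II adults fed the diet, 4 were higher and 78 lower, or 48.0 percent beside 46.7 percent, with the dependence on scaling given above. Over all genes, 0.0263 percent were called higher and 0.0461 percent lower for haplotype, 2.7 and 0.211 percent for age under the diet, and 0.382 and 0.0461 percent for age without it. The shares were 2.55 and 58.8 percent for Hap-I against C57 and 3.16 and 43.5 percent for Hap-II against C57. Tusc3 had only 2 genes in its window, neither of which passed the filter.

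Of the 10 genes higher with age under the diet, 7 lay near Krcc1. They included Igkv3-2 (1.46 ± 1.77 to 86.8 ± 74.9 TPM, limma adjusted p = 0.00924), Igkv3-5 (0.640 ± 0.550 to 20.1 ± 12.9 TPM, adjusted p = 0.00517) and Igkj4 (0.716 ± 1.43 to 12.2 ± 6.28 TPM, adjusted p = 0.00351). These are segments of the immunoglobulin kappa locus, a multigene family whose members are uncertain one by one. Cd8b1, the T cell co-receptor chain next to Krcc1, rose from 0.354 ± 0.263 to 1.23 ± 0.245 TPM (SD, n = 4 each; limma adjusted p = 0.0115). The B cell markers also differed between these groups, at 5.27 to 25.8 against 47.9 to 229 TPM, and their part was not tested.

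The other 3 were Serpine2 near Wdfy1, Vsir near Pla2g12b and Rnf44 near Dok3. Serpine2, an inhibitor of thrombin and plasminogen activators, rose from 6.63 ± 2.11 to 13.6 ± 4.35 TPM (limma adjusted p = 0.0398). Vsir, an immune checkpoint receptor, rose from 1.54 ± 0.981 to 4.07 ± 1.79 TPM (adjusted p = 0.0473), and the ubiquitin ligase gene Rnf44 from 10.5 ± 3.92 to 23.0 ± 7.06 TPM (adjusted p = 0.0420). All 7 genes named here for age under the diet lost the call when the 8 Hap-I libraries without the diet were left out. Their limma adjusted p was then between 0.0619 and 0.183. Serpine2 and Rnf44 were called under 6 of 14 alternatives each, Vsir under 4 of 14 and Cd8b1 under 4 of 8. Igkv3-2, Igkv3-5 and Igkj4 were each called under 12 of 14. Without the diet, Smyd1, whose annotated span contains that of Krcc1, fell from 1.71 ± 0.596 to 0.79998 ± 0.0562 TPM with age (limma adjusted p = 0.0275). The limma adjusted p of Smyd1 was 0.221 with only the 2 Hap-I groups without the diet in the fit. It was called under 2 of 7 alternatives.

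The direct neighbours of 2 members were set beside them. Ddx41, an RNA helicase gene whose lower coordinate lies 7179 bases from that of Dok3, was 14.8 and 14.3 TPM in libraries 1 and 4 of the Hap-II adults and 15.4 TPM in C57 library 4, and between 0.219 and 3.46 TPM in the other 13 of those 16 libraries. Of these 3, Hap-II library 1 also had the highest Dok3, Hap-II library 4 had the lowest Dok3 of its group (0.677 TPM), and C57 library 4 had Dok3 listed at 0. In the Hap-I groups without the diet, where Dok3 was listed at 0, Ddx41 was 8.88 to 19.8 TPM in adults and 19.3 to 25.1 TPM in aged mice. Edem2, near Procr, was 5.81 to 12.8 TPM in Hap-I adults and 10.9 to 25.2 TPM in Hap-II adults fed the diet, which overlapped. Its log2 difference had the sign of Procr for haplotype (-0.60), age under the diet (0.58) and Hap-I against C57 (-1.17). It had the opposite sign for age without the diet (0.36) and Hap-II against C57 (-0.56).

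The histone H2A variants and the factors that exchange H2A.Z, 10 genes in all, passed the filter. None was called for haplotype. H2afz was 135 ± 23.5 TPM in Hap-I adults and 108 ± 14.9 TPM in Hap-II adults fed the diet (SD, n = 4 each; limma adjusted p = 0.737), and its paralog H2afv 87.1 ± 9.29 and 97.9 ± 20.6 TPM (adjusted p = 0.784). Anp32e, a chaperone that removes H2A.Z from chromatin, rose with age under the diet from 18.03 ± 5.31 to 46.3 ± 30.6 TPM. Its log2 difference was 1.17 (limma adjusted p = 0.0456, and 0.163 without the 8 libraries). It was called under 5 of 14 alternatives. H2afz was higher than in C57 adults (67.4 ± 5.37 TPM) in both groups of adults fed the diet, by 0.98 and 0.67 on the log2 scale (limma adjusted p = 3.13e-04 and 0.00828), with the division of reads between H2afz and Gm8203 unknown.

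Over all 63 partner genes, limma called none for haplotype (5 at an unadjusted p under 0.05), 4 higher for age under the diet and 1 higher for age without it. These are 6.35 and 1.59 percent, beside 2.91 and 0.428 percent of all genes. Against C57, 2 were higher and 40 lower in Hap-I adults fed the diet (66.7 percent beside 61.4 percent), and 3 were higher and 27 lower in Hap-II adults fed the diet (47.6 percent beside 46.7 percent).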

How the data were processed

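Polyadenylated RNA of 24 libraries was sequenced after a stranded TruSeq preparation, per the labels. The authors deposited 1 table of TPM per mouse gene identifier, and per the submitters' processing notes kallisto, DESeq2 and GRCm38 were used; the sources used here do not give the annotation, the versions or how transcripts were summed. Deposited TPM sum to 904693 to 944019 per library, with 15975 to 18761 genes above 0 and 11.3 to 35.7 percent mitochondrial TPM. TPM keep no depth, so no counting interval is given. Of the identifiers, 29811 matched GENCODE M21 and 342 did not.

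The 15200 genes that reached 1 TPM in 4 libraries or more, all 8 members among them, were tested as log2(TPM + 1) with limma 3.58.1 in R 4.3.3. A mean per group was fitted to the 24 libraries, with a mean-variance trend, two-sided tests, Benjamini-Hochberg adjustment over all genes and a threshold of 0.05. The script was tested on simulated data. P-values set a difference against a spread between animals pooled over all 6 groups, which is not that of the 2 groups compared. Shared sequence was counted in words of 31 bases over all annotated transcripts, on both strands. Alternatives were median-of-ratios rescaling, a pseudocount of 0.1, testing unfiltered genes or those reaching 5 TPM, fewer groups, each library left out and the title number as a block.

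The members, the partner and marker lists and the tests were chosen with earlier results of these data known. Genes beyond the members were named by rule: the 3 most alike over 16 libraries, the nearest neighbours and up to 4 called within 1 Mb, called genes and close paralogs of the lists, and genes sharing sequence. Utp11, Spag6, Sntn, Gpatch4 and Anp32b values, and the sum of Gm8203 and H2afz, were looked up after seeing the data.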

Additional observations from a re-analysis of the deposited data

Results flagged for a closer look

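In 6 of 43 groups of 4 libraries, 1 library's value of a member lay far from the other 3, with a gap of more than 0.829 of the group's range, Dixon's limit for 4 samples. The limit served only to pick values to look at: chance flags about 1 in 20 groups, but the members were chosen for levels that differ between libraries, so the number of flags is not read against chance. Wdfy1 was 11.6 TPM in library 4 of the Hap-I adults on western diet, whose others had 4.20 to 4.80 TPM. Krcc1 was 12.2 TPM in library 3 of the aged Hap-I mice without the diet, against 6.48 to 6.80 TPM. Pla2g12b was 0.577 TPM in library 1 of the C57 adults, against 0.349 to 0.382 TPM. The other 3 lay close to 0 in all libraries of their group, and where the rest were listed at 0 any value above 0 passes the limit: Tusc3 at 0.0085 TPM in library 3 of the Hap-I adults on the diet, Pla2g12b at 0.0488 TPM in library 3 of the Hap-I adults without it, and Dok3 at 2.93e-05 TPM in library 1 of the C57 adults.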

How the results depend on the processing

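Of 506 alternative values for the members' differences, 476 stayed within the replicate spread and 27 moved further. The other 3 moved further and also changed sign. Changes of sign within that spread are counted among the 476. Only median-of-ratios rescaling (9 moved, 3 changed sign) and the pseudocount of 0.1 (18 moved) could pass that spread. Other filters, fewer groups and the block leave a difference of group means as it is. Leaving out 1 of 4 libraries shifts a mean by less than the spread, so the 476 do not measure stability. Median-of-ratios rescaling gave those 3, at 0.60 for Wdfy1 in Hap-II against C57, 0.18 for Krcc1 and 0.059 for Procr in Hap-I against C57. The number of genes called for haplotype on western diet, 11, was 6 with a filter of 5 TPM, 5 with the replicate block and 2 to 7 with any 1 library left out. For age on the diet, 443 genes (411 higher, 32 lower) became 272 without a low filter, 267 with a filter of 5 TPM, 4 without the 8 Hap-I libraries off the diet, 2 with the replicate block, and 47 to 979 with 1 library left out, each of the 8 moving it past 1.5 times; rescaling split 463 calls into 244 higher and 219 lower. For age without the diet, 65 genes became 3 with a pseudocount of 0.1, 262 without a filter, 27 with a filter of 5 TPM, 10 with rescaling, 4 with only the 2 groups, and 32 to 203 with 1 library left out, at 34 and 32 without aged replicates 1 and 3 and at 203 without adult replicate 2, the only 3 of these past 1.5 times. Against C57, 9327 and 7095 calls (387 and 480 higher) became 5565 (2628 higher, 2937 lower) and 4354 (2107 higher, 2247 lower) with rescaling, and 7746 to 9459 and 4082 to 8448 with 1 library left out, the lowest being without Hap-II adult 3. The cause of these changes was not tested.

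The number of genes that switch over 24 libraries, 1511, was 484 with off under 0.1 TPM. Over the 16 libraries, 285 became 131 with off under 0.1 TPM and 89 with on at 2 TPM, and over the 8 libraries 172 became 97 and 82.

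Title numbers are shared by the 3 groups on western diet, but not every same-numbered pair deviated together: the correlations ran from -0.18 to 0.53, 8 of 12 pairs were over 0.1, and 4 of 12 libraries correlated best with their own number. The block was therefore not used for pairing. Without depth, the precision of the low values of Dok3, Pla2g12b and Procr is unknown.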
